A study of Mus musculus with 20 samples.

Results

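Both calsequestrin genes and 6 further genes of the cardiac calcium release unit were followed in the mouse left ventricle, with and without the glucocorticoid receptor in cardiomyocytes. The genes were taken by symbol from the count tables: Casq1, Casq2, Hrc, Ryr2, Trdn, Asph, Jph2 and Fkbp1b, 8 of the 24059 genes counted. CardioGRKO mice carried floxed alleles of the receptor gene Nr3c1 (GRfl/fl) together with alphaMHCCre/+, a Cre recombinase driven by the cardiomyocyte promoter of alpha myosin heavy chain. GRflox mice were GRfl/fl littermates that lacked Cre, so both genotypes shared the floxed alleles and the effect of Cre itself cannot be told apart from that of receptor loss. All mice were C57BL/6 males of 9 to 13 weeks. Hearts were collected at ZT12 (lights off) or ZT0 (lights on), perfused with Tyrode solution, and RNA was taken from the left ventricular free wall. Each of the 4 groups, CardioGRKO at ZT12, GRflox at ZT12, CardioGRKO at ZT0 and GRflox at ZT0, had 5 poly(A) RNA-seq libraries. The labels do not tie the libraries to named animals, so p-values measure the spread between these libraries.

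In a cardiomyocyte, an action potential opens L-type calcium channels of the transverse tubule, and the calcium that enters opens ryanodine receptors of the facing sarcoplasmic reticulum. The reticulum keeps its releasable calcium loosely bound to calsequestrin, which triadin and junctin hold close to the receptor. Casq2 is the calsequestrin of heart muscle and Casq1 that of fast skeletal muscle. Mutations of CASQ2, RYR2 or TRDN in humans cause catecholaminergic polymorphic ventricular tachycardia.

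The reference promoters of the 2 calsequestrin genes are shown because these paralogs stood far apart in the size of their change between the genotypes. Each sequence is the 250 bases before the RefSeq transcription start on the gene's own strand, in build GRCm38.p6. The Casq1 window is chr1:172219896-172220145 on the minus strand, with CAGCTG, an E-box bound by myogenic factors in skeletal muscle, in capitals. The Casq2 window is chr3:102086165-102086414 on the plus strand, with a match to the MEF2 site, bound by myocyte enhancer factors, in capitals.
Casq1: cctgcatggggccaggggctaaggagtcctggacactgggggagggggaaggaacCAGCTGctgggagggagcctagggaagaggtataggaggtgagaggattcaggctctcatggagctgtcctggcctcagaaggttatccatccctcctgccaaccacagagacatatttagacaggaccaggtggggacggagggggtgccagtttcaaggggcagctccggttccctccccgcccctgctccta
Casq2: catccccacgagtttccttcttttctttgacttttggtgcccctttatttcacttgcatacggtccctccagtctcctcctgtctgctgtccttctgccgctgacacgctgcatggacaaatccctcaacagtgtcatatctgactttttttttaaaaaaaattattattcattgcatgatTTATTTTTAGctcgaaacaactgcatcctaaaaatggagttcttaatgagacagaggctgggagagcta
G and C made up 61.6% of the Casq1 window and 41.6% of the Casq2 window, against a median of 52.4% over all promoter windows. Promoters of 6 of the 8 genes were matched, and 6 motifs were searched on both strands. The full palindromic glucocorticoid response element, held by 0.00913% of 32851 promoter windows of this length, was in none of the 6 genes' windows. A single arm of it, AGAACA (16.1% of all windows), the clock E-box CACGTG (6.02%) and the TATA box TATAAA (12.4%) were likewise in none of them. CAGCTG, present in 13.0% of all windows, began 195 bases before the start of Casq1, and it was also in the windows of Jph2 and Hrc. The MEF2 match of Casq2, a motif found in 2.92% of all windows, began 69 bases before the start. The letters CAGCTG and the MEF2 site were added to the search after the sequences had been seen, and a match is a description of the letters, not evidence of a bound site.

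Library totals ran from 5854462 to 37648421 counts with a median of 23223656. The shallowest library was CardioGRKO ZT0 replicate 1, whose table header carries another number than the other 19 libraries, so its depth and whatever that number stands for cannot be told apart. The targeted gene Nr3c1 was at 46.7 to 55.9 counts per 1000000 (CPM) in CardioGRKO ZT12 libraries against 95.3 to 117 CPM in GRflox ZT12 libraries, and at 51.9 to 61.1 CPM in CardioGRKO ZT0 libraries against 106 to 122 CPM in GRflox ZT0 libraries. Its log2 fold change was -1.08 ± 0.06 at ZT12 and -1.06 ± 0.06 at ZT0, in libraries of whole tissue in which Cre was directed to cardiomyocytes. The sum of 10 cardiomyocyte markers was 93550 to 107100 CPM in CardioGRKO ZT12, 109800 to 114700 CPM in GRflox ZT12, 94770 to 102300 CPM in CardioGRKO ZT0 and 105900 to 110500 CPM in GRflox ZT0. At either time every CardioGRKO sum lay below every GRflox sum. Myh6 was the largest part of it, averaging 52420 CPM in CardioGRKO ZT12 against 61070 CPM in GRflox ZT12. At ZT0 it averaged 49740 CPM in CardioGRKO against 56060 CPM in GRflox. Tnnc1 and Actc1 had the higher mean in CardioGRKO at both times. Of the 10 markers, 6 were called lower and 0 higher at ZT12, beside 10.7% (lower) and 10.4% (higher) of all tested genes. At ZT0, 4 were lower and 1 higher, beside 7.35% (lower) and 7.36% (higher). In bulk tissue, fewer cells of a type and less RNA per cell cannot be told apart, and the part of the marker difference in the results below was not tested.

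The genotype comparison showed 2 calsequestrins higher and 4 partner genes lower in CardioGRKO hearts. At ZT12, Casq1 was 5.37-fold and Casq2 1.22-fold higher, while Ryr2 was 1.48-fold, Trdn 1.35-fold, Hrc 1.18-fold and Jph2 1.16-fold lower. The same 6 genes passed the test in the same directions at ZT0. Each call came from edgeR's quasi-likelihood test on the counts with a Benjamini-Hochberg adjusted p under 0.05 over the 14007 genes tested, all 8 genes among them. The 6 of 8 genes called at ZT12 stand beside 21.1% of all tested genes, and the 6 of 8 at ZT0 beside 14.7%. By direction, 2 of the 8 were higher, against 10.4% of all genes at ZT12 and 7.36% at ZT0, and 4 were lower, against 10.7% at ZT12 and 7.35% at ZT0. The median log2 fold change of the 8 genes was -0.11 at ZT12, where that of all tested genes was 0.00, and -0.09 at ZT0, where that of all tested genes was -0.01. Without the shallowest library the ZT0 count was 4, with 2 higher and 2 lower, beside 11.6% of all genes called.

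**Figure D1:**
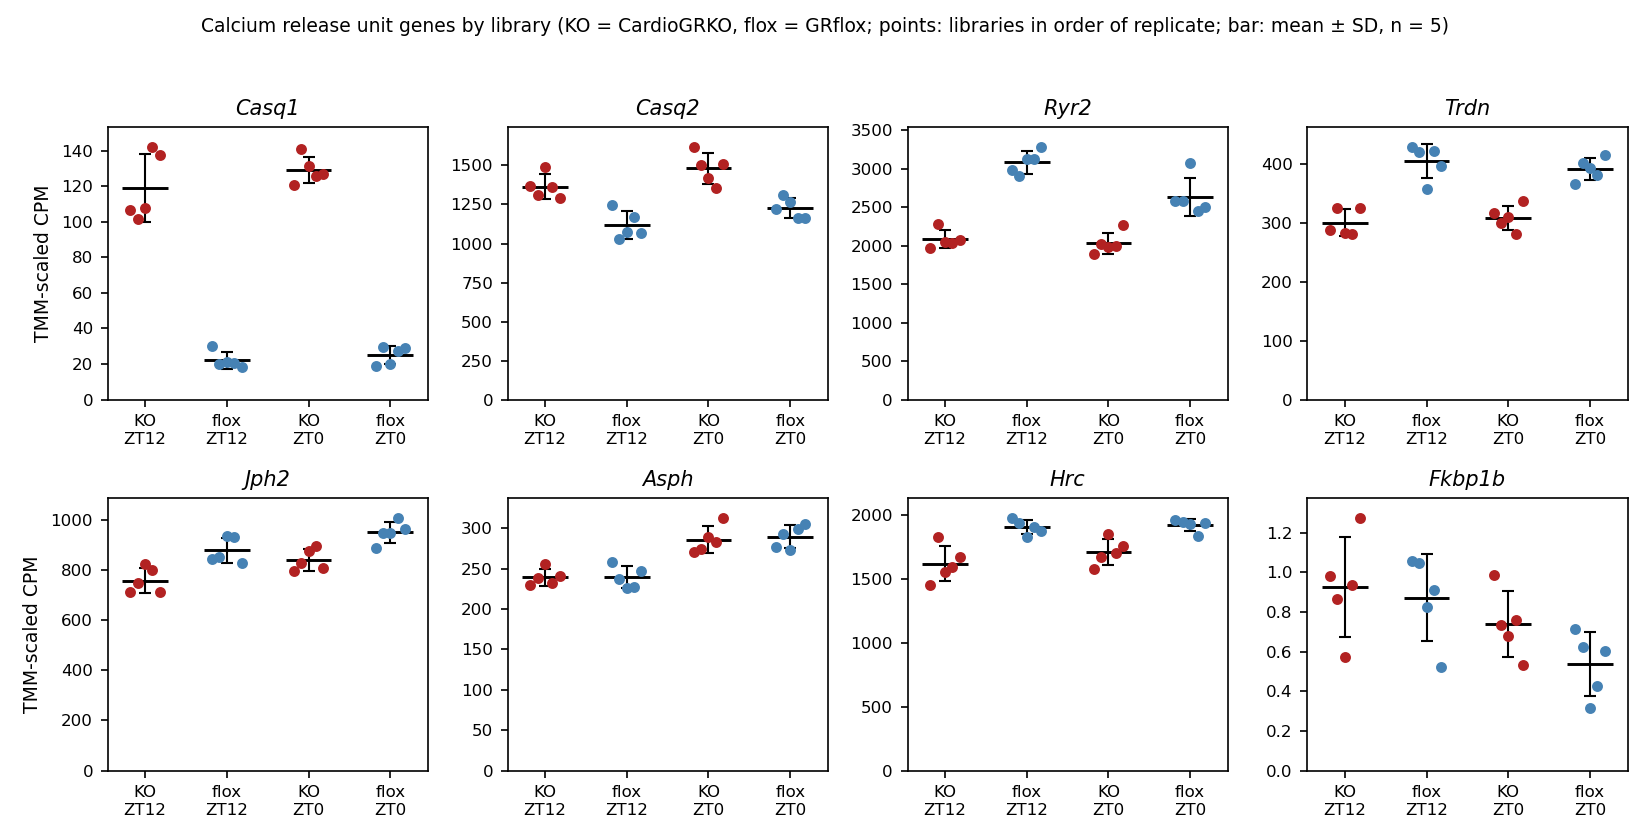
Each panel plots 1 gene in TMM-scaled CPM (y axis, from 0) for CardioGRKO and GRflox libraries at ZT12 and at ZT0 (x axis), with points for libraries and bars for mean ± SD (n = 5). Casq1 lay at or above 102 CPM in all CardioGRKO libraries and at or below 30.4 CPM in all GRflox libraries, and Fkbp1b between 0.314 and 1.27 CPM.

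Casq1 binds calcium in the lumen of the reticulum and is the skeletal muscle member of the pair (Entrez 12372, GRCm38.p6 chr1:172209894-172219895, minus strand). At ZT12 its level was 107, 102, 108, 142 and 137 CPM in CardioGRKO libraries, in order of replicate, against 30.4, 20.3, 21.0, 20.7 and 18.4 CPM in GRflox libraries. At ZT0 it was 121, 141, 131, 126 and 127 CPM in CardioGRKO libraries, against 18.9, 29.7, 20.1, 27.5 and 29.2 CPM in GRflox libraries. Every CardioGRKO library was thus more than 3 times above the highest GRflox library, and the genotypes did not overlap at either time. The log2 fold change was 2.42 ± 0.13 (SE; 95% interval 2.15 to 2.70; edgeR adjusted p = 5.52e-12) at ZT12 and 2.37 ± 0.13 (2.10 to 2.64; adjusted p = 2.04e-11) at ZT0. By size of log2 fold change Casq1 ranked 26 of the 14007 tested genes at both times. An antisense gene, Gm17224, overlaps 156 bases or 8.0% of its exons, and the strand setting of the counting is not known from the labels.

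Casq2, the main calcium store protein of the cardiac reticulum (Entrez 12373, chr3:102086415-102146514, plus strand), moved in the same direction by far less. It was at 1369, 1313, 1492, 1359 and 1291 CPM in CardioGRKO ZT12 libraries, against 1245, 1027, 1072, 1170 and 1070 CPM in GRflox ZT12 libraries. In CardioGRKO ZT0 libraries it was at 1617, 1505, 1423, 1355 and 1510 CPM, against 1219, 1309, 1268, 1166 and 1162 CPM in GRflox ZT0 libraries. All CardioGRKO values lay above all GRflox values of the same time, with a gap that was small beside the spread within groups. Its log2 fold change was 0.29 ± 0.06 (edgeR adjusted p = 0.000537) at ZT12 and 0.27 ± 0.06 (adjusted p = 0.00149) at ZT0.

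The histidine-rich calcium binding protein gene Hrc encodes a further luminal calcium buffer, which also binds triadin and the calcium pump (Entrez 15464, chr7:45335269-45338973, plus strand). Its direction was the opposite of that of both calsequestrins. Hrc was at 1449, 1824, 1556, 1591 and 1673 CPM in CardioGRKO ZT12 libraries, against 1973, 1932, 1830, 1906 and 1875 CPM in GRflox ZT12 libraries. At ZT0 it was at 1572, 1666, 1846, 1699 and 1757 CPM in CardioGRKO libraries, against 1958, 1943, 1929, 1836 and 1938 CPM in GRflox libraries. The ZT12 groups were separated narrowly, by the second CardioGRKO library, and the ZT0 groups overlapped. Hrc fell by 0.23 ± 0.05 on the log2 scale (edgeR adjusted p = 0.00155) at ZT12 and by 0.17 ± 0.05 (adjusted p = 0.0253) at ZT0. The ZT0 call depended on single libraries: without CardioGRKO replicate 1 the log2 fold change was -0.14 (adjusted p = 0.0887), and it was also lost without CardioGRKO replicate 2 (0.0655) or 4 (0.0525) or GRflox replicate 1 (0.0622) or 2 (0.0537).

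Ryr2, the calcium release channel of the heart (Entrez 20191, chr13:11553099-12106945, minus strand), had the largest decrease of the 8 genes at both times. Its level was 1971, 2286, 2045, 2036 and 2079 CPM in CardioGRKO ZT12 libraries, against 2975, 2902, 3123, 3129 and 3276 CPM in GRflox ZT12 libraries. At ZT0 it was 1891, 2018, 1987, 1996 and 2261 CPM in CardioGRKO libraries, against 2578, 2581, 3068, 2450 and 2506 CPM in GRflox libraries. The genotypes did not overlap at either time, and GRflox ZT0 replicate 3 stood above the other GRflox ZT0 libraries. Ryr2 fell by 0.56 ± 0.06 on the log2 scale (95% interval -0.69 to -0.44; edgeR adjusted p = 1.48e-07) at ZT12 and by 0.38 ± 0.06 (-0.50 to -0.26; adjusted p = 6.75e-05) at ZT0. Without GRflox ZT0 replicate 3 the ZT0 log2 fold change was -0.32.

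Trdn encodes triadin, the membrane protein that links the ryanodine receptor to calsequestrin (Entrez 76757, chr10:33083483-33476709, plus strand). It was at 287, 325, 283, 281 and 326 CPM in CardioGRKO ZT12 libraries, against 428, 420, 357, 421 and 397 CPM in GRflox ZT12 libraries. At ZT0 the values were 317, 299, 309, 281 and 337 CPM in CardioGRKO libraries, against 366, 401, 392, 382 and 416 CPM in GRflox libraries. The groups did not overlap at either time. Trdn fell by 0.43 ± 0.06 on the log2 scale (edgeR adjusted p = 7.11e-06) at ZT12 and by 0.34 ± 0.06 (adjusted p = 0.000199) at ZT0, the next largest decrease after Ryr2.

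Jph2, junctophilin-2, spans the gap between the transverse tubule and the reticulum and keeps the membranes of the release unit together (Entrez 59091, chr2:163336242-163398049, minus strand). Its level was 710, 747, 823, 798 and 711 CPM in CardioGRKO ZT12 libraries, against 845, 853, 934, 931 and 828 CPM in GRflox ZT12 libraries. In CardioGRKO ZT0 libraries it was 796, 827, 878, 897 and 809 CPM, against 888, 948, 948, 1007 and 962 CPM in GRflox ZT0 libraries. The ZT12 groups did not overlap, while at ZT0 1 CardioGRKO library lay above the lowest GRflox library. The log2 fold change was -0.21 ± 0.05 (edgeR adjusted p = 0.0035) at ZT12 and -0.18 ± 0.05 (adjusted p = 0.0206) at ZT0. Scaled by library totals alone, Jph2 was no longer called at ZT12 (-0.13, adjusted p = 0.0629) or ZT0 (-0.13, adjusted p = 0.0912), nor Hrc at ZT0 (-0.12, adjusted p = 0.09). The ZT0 call of Jph2 was also lost without CardioGRKO replicate 1 (-0.15, adjusted p = 0.065), 2 (0.0515) or 5 (0.054) or GRflox replicate 4 (0.0607).

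Asph yields junctin, junctate and the enzyme aspartyl/asparaginyl beta-hydroxylase from 1 gene (Entrez 65973, chr4:9449085-9669344, minus strand), and the counts sum its transcripts. Between the genotypes it showed no difference past the test. The level was 229, 239, 256, 232 and 241 CPM in CardioGRKO ZT12 libraries, against 258, 237, 226, 228 and 247 CPM in GRflox ZT12 libraries. At ZT0 it was 271, 274, 289, 283 and 312 CPM in CardioGRKO libraries, against 276, 293, 273, 299 and 306 CPM in GRflox libraries. The genotypes overlapped at both times. The 95% interval of the log2 fold change ran from -0.10 to 0.10 at ZT12 and from -0.12 to 0.08 at ZT0 (edgeR adjusted p = 0.983 and 0.87), so a change of the size seen for Trdn or Ryr2 lies outside it. Clvs1, on the opposite strand, overlaps 14.3% of the Asph exons and was counted at no more than 13.1 CPM in any library.

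Fkbp1b encodes FKBP12.6, a small protein that binds the ryanodine receptor (Entrez 14226, chr12:4833176-4841573, minus strand), and it was close to the lower limit of what these libraries measure. It had 15 to 28 counts per library in CardioGRKO ZT12 and 8 to 28 in GRflox ZT12, and 6 to 28 in CardioGRKO ZT0 and 6 to 19 in GRflox ZT0. The means were 0.925 ± 0.250 CPM in CardioGRKO ZT12 against 0.872 ± 0.218 CPM in GRflox ZT12, and 0.738 ± 0.165 CPM in CardioGRKO ZT0 against 0.537 ± 0.162 CPM in GRflox ZT0 (SD, n = 5 each). The groups overlapped, and the log2 fold changes of 0.05 (95% interval -0.45 to 0.54; edgeR adjusted p = 0.95) at ZT12 and 0.42 (-0.13 to 0.98; adjusted p = 0.333) at ZT0 leave changes of the size seen for Casq2 within their intervals. A difference was not detectable at this depth.

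Counted over the 8 genes, the CardioGRKO and GRflox libraries did not overlap for 6 at ZT12 (Asph and Fkbp1b excepted) and for 4 at ZT0 (Casq1, Casq2, Ryr2 and Trdn). Over all tested genes the share that did not overlap was 13.8% at ZT12 and 11.9% at ZT0.

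**Figure D2:**
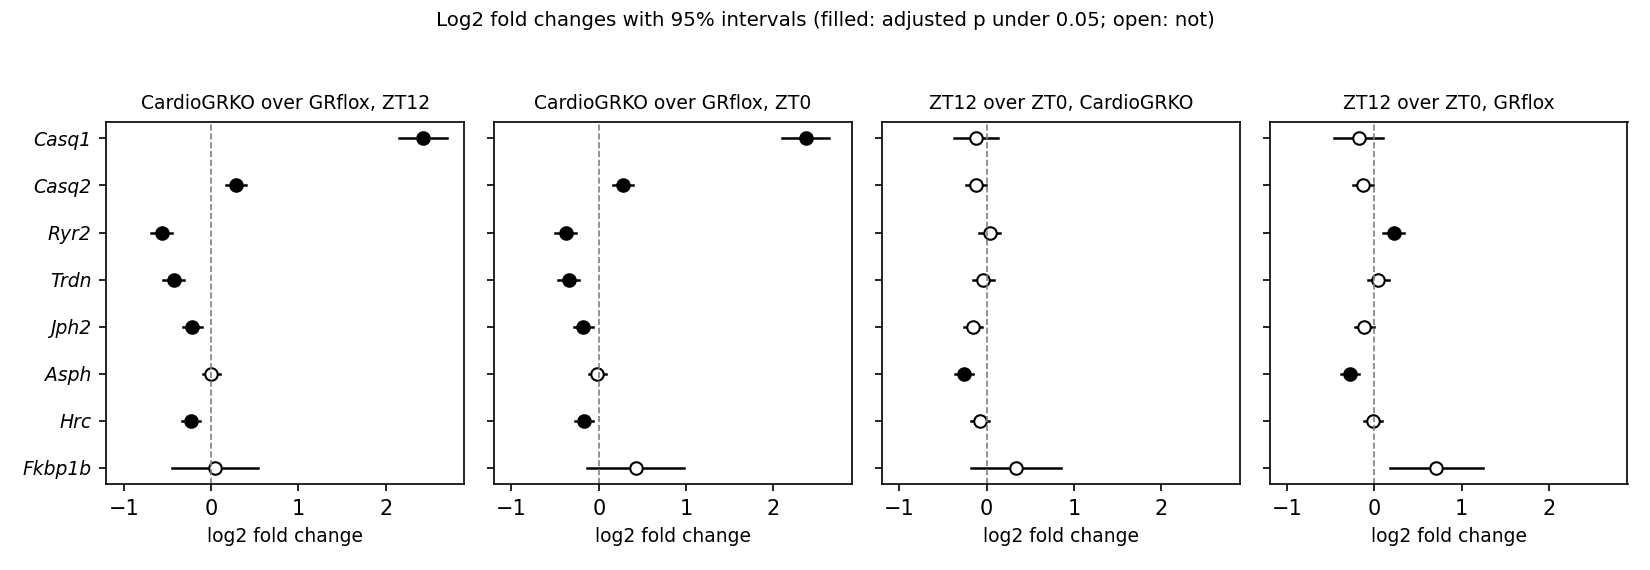
Log2 fold changes (x axis) of the 8 genes (rows) with 95% intervals from the edgeR fit, for CardioGRKO over GRflox at ZT12 and at ZT0 and for ZT12 over ZT0 in CardioGRKO and in GRflox; filled points have an adjusted p under 0.05. Casq1 lies beyond 2 in both genotype panels, and in the time panels Asph is below 0 in both genotypes and Ryr2 above 0 in GRflox.

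Because Casq1 and Casq2 encode paralogs that fill the same compartment, their levels were also set against each other within each library, per kilobase of exon. The CardioGRKO hearts held a larger part of their calsequestrin transcripts as Casq1. Casq1 was 9.75%, 9.67%, 9.09%, 12.6% and 12.8% of the pair in CardioGRKO ZT12 libraries, against 3.27%, 2.66%, 2.63%, 2.39% and 2.33% in GRflox ZT12 libraries. In CardioGRKO ZT0 libraries it was 9.36%, 11.5%, 11.3%, 11.4% and 10.4%, against 2.10%, 3.05%, 2.14%, 3.16% and 3.36% in GRflox ZT0 libraries. The groups of each time lay far apart, and Casq2 remained the more abundant transcript in all 20 libraries. Casq2 exceeded Casq1 by at least 6.79-fold in every CardioGRKO library and by at least 28.8-fold in every GRflox library.

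The log2 ratio of Casq1 to Casq2 was higher in CardioGRKO by 2.15 ± 0.15 (SE, n = 5 each) at ZT12 and by 2.12 ± 0.16 at ZT0. The exact 2-sided permutation p was 0.00794 for each, the smallest that exact permutation of 5 against 5 libraries can give, and 0.0159 after adjustment over the 4 comparisons. Between ZT12 and ZT0 the ratio differed by -0.01 ± 0.13 in CardioGRKO (exact permutation p = 0.937) and by -0.04 ± 0.17 in GRflox (exact permutation p = 0.786, adjusted 0.937). The summed calsequestrin level per kilobase was 598.5 ± 28.7 in CardioGRKO ZT12 against 449 ± 36.9 in GRflox ZT12, and 650 ± 38.0 in CardioGRKO ZT0 against 493 ± 24.8 in GRflox ZT0 (CPM per kilobase, SD, n = 5 each). Most of the difference in the sum came, in these units, from Casq2 at ZT12 (534 ± 30.5 in CardioGRKO against 437 ± 34.8 in GRflox) and at ZT0 (580 ± 38.7 in CardioGRKO against 479 ± 25.0 in GRflox). Casq1 was at 64.5 ± 10.3 in CardioGRKO ZT12 against 12.0 ± 2.56 in GRflox ZT12, and at 69.9 ± 4.06 in CardioGRKO ZT0 against 13.6 ± 2.80 in GRflox ZT0.

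**Figure D3:**
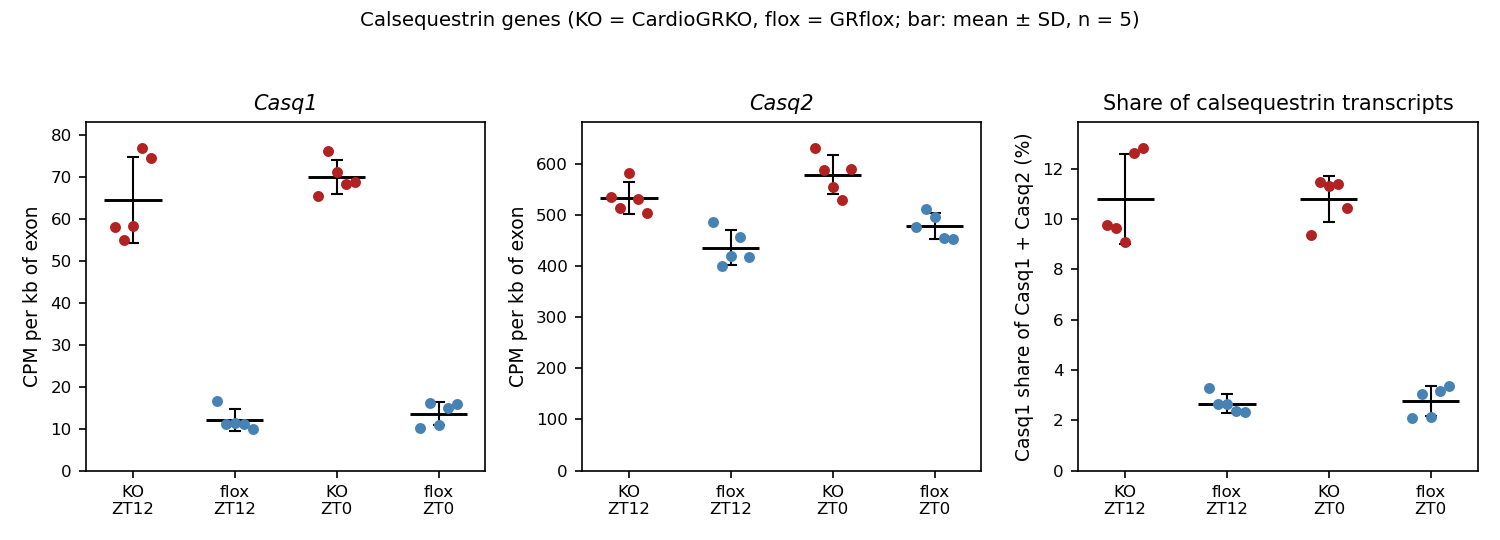
Casq1 and Casq2 in CPM per kilobase of exon and the Casq1 share of their sum in percent (y axes, from 0) for CardioGRKO and GRflox libraries at ZT12 and at ZT0 (x axes); points are libraries and bars mean ± SD (n = 5). The Casq1 share averaged 10.8% in CardioGRKO at either time, against 2.65% in GRflox at ZT12 and 2.76% at ZT0.

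Fewer of these genes passed the test for time of day than for genotype. In CardioGRKO hearts 1 of the 8 passed the test between ZT12 and ZT0, beside 9.17% of all tested genes, and in GRflox hearts 2 of the 8, beside 17.3%. Asph was the gene called in both genotypes: ZT12 libraries were lower than ZT0 libraries, with a log2 fold change of -0.26 ± 0.05 in CardioGRKO (edgeR adjusted p = 0.00105) and -0.28 ± 0.05 in GRflox (adjusted p = 0.00024). Its ZT12 and ZT0 libraries did not overlap in either genotype, which held for 7.11% of all tested genes in CardioGRKO and 12.5% in GRflox. Its means were 240 ± 10.5 CPM at ZT12 against 286 ± 16.6 CPM at ZT0 in CardioGRKO, and 239 ± 13.7 CPM at ZT12 against 290 ± 14.4 CPM at ZT0 in GRflox (SD, n = 5 each).

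Ryr2 was higher at ZT12 than at ZT0 in GRflox hearts by 0.22 ± 0.06 on the log2 scale (95% interval 0.10 to 0.34; edgeR adjusted p = 0.00848). Its means there were 3081 ± 146 CPM at ZT12 against 2637 ± 247 CPM at ZT0 (SD, n = 5 each), and the groups overlapped through ZT0 replicate 3. Without that library the log2 fold change was 0.29 (adjusted p = 0.000438). In CardioGRKO hearts the means were 2083 ± 120 CPM at ZT12 against 2031 ± 138 CPM at ZT0, a log2 fold change of 0.04 ± 0.06 (adjusted p = 0.779). Of the 10 cardiomyocyte markers, 1 was called higher and 0 lower at ZT12 in GRflox, beside 17.3% of all tested genes called. Their median log2 fold change was -0.02. The marker called was Ttn, higher at ZT12 by 0.64 ± 0.12 (edgeR adjusted p = 0.000342), and its part in the Ryr2 result was not tested.

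The other 6 genes did not pass the test for time in either genotype. The nearest were Jph2 in CardioGRKO (-0.15 ± 0.05, edgeR adjusted p = 0.0632), which DESeq2 called (adjusted p = 0.0288), and Fkbp1b in GRflox (0.71 ± 0.26, edgeR adjusted p = 0.0625). Jph2 in CardioGRKO was also called without ZT0 replicate 1 (adjusted p = 0.0391) or without ZT12 replicate 3 (0.0170) or 4 (0.0382), so the count of 1 for that comparison rises to 2. Casq2 gave a log2 fold change of -0.12 in CardioGRKO (adjusted p = 0.214) and -0.13 in GRflox (adjusted p = 0.11). Casq1 gave -0.12 ± 0.12 (adjusted p = 0.617) in CardioGRKO and -0.18 ± 0.14 (adjusted p = 0.419) in GRflox. For Trdn the log2 fold changes were -0.04 in CardioGRKO and 0.05 in GRflox, and for Hrc -0.08 in CardioGRKO and -0.01 in GRflox.

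Whether the genotype difference itself changed with time was asked with an interaction term, the CardioGRKO over GRflox log2 fold change at ZT12 minus that at ZT0. By edgeR 0 of the 8 genes passed, beside 0.186% of all tested genes, and by DESeq2 also 0. Before adjustment, 1 gene had a p under 0.05. This was Ryr2, with an interaction of -0.19 ± 0.08 (edgeR adjusted p = 0.755). The interaction of Casq1 was 0.06 ± 0.18 and that of Casq2 0.01 ± 0.08, with adjusted p of 0.99 or more by edgeR. The call of Ryr2 for time in GRflox and not in CardioGRKO is therefore not shown to be a difference between the genotypes.

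Scaled by exon length, the levels of the 8 genes can be put in order within a group. Hrc was highest in all 4 groups, at 671 CPM per kilobase in CardioGRKO ZT12, 789 in GRflox ZT12, 708 in CardioGRKO ZT0 and 797 in GRflox ZT0. Casq2, Jph2 and Ryr2 followed in that order in all 4 groups. Neighbouring ranges did not overlap here except those of Jph2 and Ryr2 in GRflox ZT12, where Jph2 averaged 206 ± 11.9 and Ryr2 183 ± 8.70 CPM per kilobase and Jph2 was the higher in 4 of 5 libraries.

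Below Ryr2 the order differed between the genotypes by the place of Casq1. In CardioGRKO libraries Casq1 was level with Trdn by the RefSeq-matched exon length, at 64.5 against 64.4 CPM per kilobase at ZT12 and 69.9 against 66.2 at ZT0, with overlapping ranges and Casq1 the higher in 2 of 5 and 3 of 5 libraries. In GRflox libraries Casq1 lay below both Trdn and Asph, at 12.0 against 86.7 and 19.8 CPM per kilobase at ZT12 and 13.6 against 83.9 and 23.9 at ZT0, with no overlap. Fkbp1b was last in every group, at 0.55 to 0.95 CPM per kilobase. The order of the means was the same with the exons of all annotated transcripts as the length, but the distances were not. With that length Casq1 in CardioGRKO libraries was no longer level with Trdn: Casq1 averaged 61.1, Trdn 32.1 and Ryr2 72.4 CPM per kilobase at ZT12, and Casq1 66.2, Trdn 33.0 and Ryr2 70.5 at ZT0. In GRflox libraries Casq1 then averaged 11.3 against 14.9 for Asph at ZT12, where their ranges overlapped, and 12.8 against 17.98 at ZT0. Which neighbour Casq1 lies closest to thus depended on the transcripts that set the length.

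**Figure D4:**
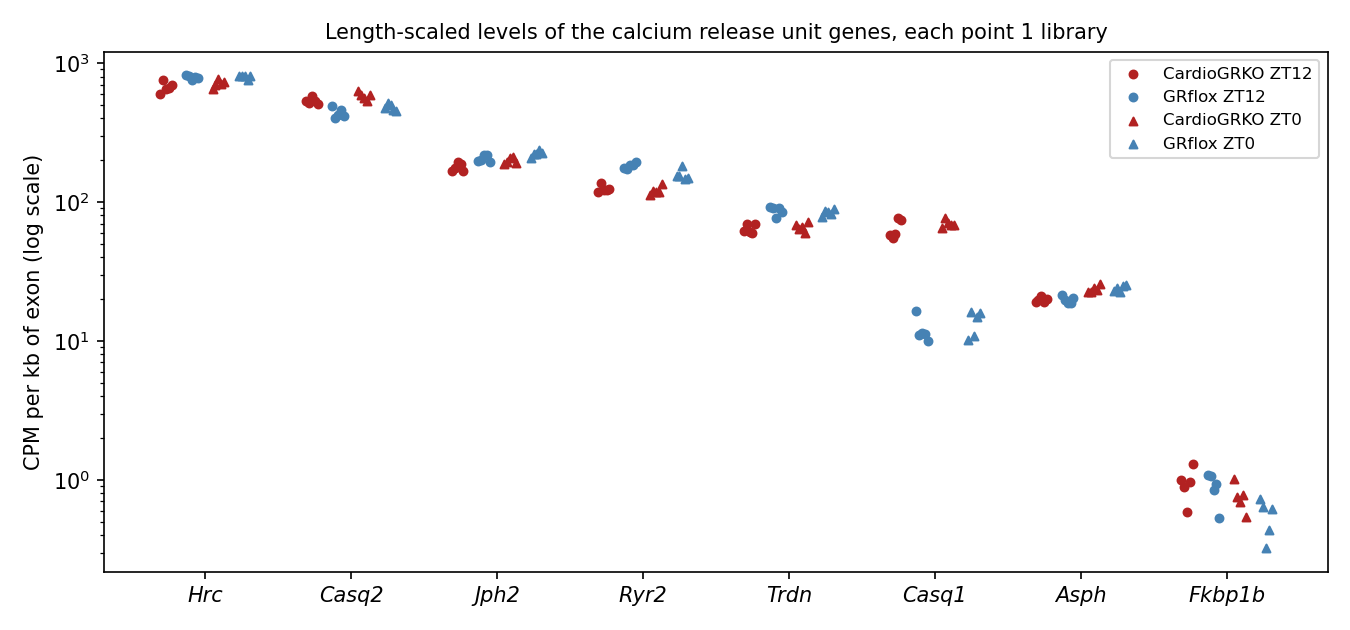
Levels of the 8 genes in CPM per kilobase of exon (y axis, log scale) in CardioGRKO and GRflox libraries at ZT12 (circles) and ZT0 (triangles), each point 1 library. By the RefSeq-matched exon length used here, the CardioGRKO points of Casq1 sit beside those of Trdn and its GRflox points lie below those of Asph; with the exons of all transcripts, Casq1 in CardioGRKO averaged 61.1 against 32.1 for Trdn at ZT12 and 66.2 against 33.0 at ZT0.

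The genes were also set beside their paralogs on the same scale. Ryr2 was at 121 to 183 CPM per kilobase in group means, while Ryr1, the skeletal muscle receptor, was at 0.03 to 0.07 and Ryr3 at 0.14 to 0.19. Jph1, the skeletal muscle junctophilin, averaged 6.68 CPM per kilobase in CardioGRKO ZT12 against 11.5 in GRflox ZT12, and 6.69 in CardioGRKO ZT0 against 10.1 in GRflox ZT0. Fkbp1a, which encodes FKBP12, averaged 129 CPM per kilobase in CardioGRKO ZT12 against 121 in GRflox ZT12, and 139 in CardioGRKO ZT0 against 127 in GRflox ZT0, far above Fkbp1b.

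Of 28 other listed genes of the release unit, 27 were in the count tables and 26 were tested. At ZT12, 2 were higher and 10 lower in CardioGRKO, and at ZT0 5 were higher and 8 lower. The shares over all tested genes were 10.4% (higher) and 10.7% (lower) at ZT12, with 7.36% (higher) and 7.35% (lower) at ZT0. Their median log2 fold change was -0.07 at ZT12 and -0.05 at ZT0. Without the shallowest library the ZT0 counts were 5 higher and 6 lower, beside 11.6% of all genes called. The smallest p-values at ZT12 belonged to 6 genes that were lower in CardioGRKO. Tecrl, a reticulum protein in which human mutations cause the same tachycardia, had a log2 fold change of -0.61 ± 0.06. Jph1 was at -0.78 ± 0.09 and Cmya5, which encodes the anchor myospryn, at -0.56 ± 0.07. Tmem38b and Tmem38a, genes of the potassium channels TRIC-B and TRIC-A that balance charge during release, were at -0.55 ± 0.07 and -0.15 ± 0.03. Cacna1c, the pore of the cardiac L-type calcium channel, was at -0.30 ± 0.05, and all 6 had an edgeR adjusted p of 0.00235 or less.

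At ZT0, 5 of these were again among the 6 with the smallest p-values, with log2 fold changes of -0.51 for Tmem38b, -0.44 for Cmya5, -0.58 for Jph1, -0.39 for Tecrl and -0.27 for Cacna1c. The sixth, Akap6, the gene of a kinase anchor at the nuclear envelope and reticulum, was higher in CardioGRKO by 0.25 ± 0.06 (edgeR adjusted p = 0.0041). Between ZT12 and ZT0, Fkbp1a of this list was lower at ZT12 in CardioGRKO (-0.11) and Tecrl was higher at ZT12 in GRflox (0.27).

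The 10 genes listed for calcium reuptake and luminal calcium binding moved in both directions, with 3 higher and 3 lower at either time. The shares over all tested genes were 10.4% (higher) and 10.7% (lower) at ZT12, with 7.36% and 7.35% at ZT0. Without the shallowest library the ZT0 counts were 3 higher and 2 lower, beside 11.6% of all genes called. Atp2a1, the calcium pump of fast skeletal muscle, was higher in CardioGRKO by 1.26 ± 0.18 (edgeR adjusted p = 2e-05) at ZT12 and 1.58 ± 0.20 (adjusted p = 4.41e-06) at ZT0. It was at 4.65 CPM in CardioGRKO ZT12 against 1.94 CPM in GRflox ZT12, and at 3.90 CPM in CardioGRKO ZT0 against 1.34 CPM in GRflox ZT0. Atp2a2, the cardiac calcium pump, had log2 fold changes of -0.24 ± 0.05 at ZT12 (adjusted p = 0.000414) and -0.16 ± 0.05 at ZT0 (adjusted p = 0.0189). Camk2d, a calcium-dependent kinase that phosphorylates the ryanodine receptor, was higher by 0.22 at ZT12 and 0.21 at ZT0, and Calu, the luminal protein calumenin, by 0.15 and 0.14. Slc8a1, the sodium-calcium exchanger, was lower with log2 fold changes of -0.32 at ZT12 and -0.29 at ZT0. Pln, the inhibitor of the cardiac pump, was lower at ZT12 (-0.15) and Atp2a3 at ZT0 (-0.36).

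Since Casq1 and Atp2a1 are genes of fast skeletal muscle, markers of that tissue were read in the same libraries. The sum of 14 skeletal muscle markers was 19.35 to 28.9 CPM in CardioGRKO ZT12 against 19.57 to 29.08 CPM in GRflox ZT12, and 21.73 to 26.43 CPM in CardioGRKO ZT0 against 19.72 to 28.08 CPM in GRflox ZT0. These ranges overlapped at both times, but 1 gene, Cacna1s, made up most of the sum. Cacna1s, the skeletal muscle calcium channel, averaged 12.8 CPM in CardioGRKO ZT12 against 17.2 CPM in GRflox ZT12, and 15.03 CPM in CardioGRKO ZT0 against 19.97 CPM in GRflox ZT0. The other 13 markers summed to 9.356 to 11.47 CPM in CardioGRKO ZT12 against 5.708 to 7.322 CPM in GRflox ZT12, and to 7.409 to 10.43 CPM in CardioGRKO ZT0 against 4.383 to 6.782 CPM in GRflox ZT0. Without Cacna1s the sum was thus higher in every CardioGRKO library at both times, the direction of Casq1. The 13 still include Atp2a1, which prompted this reading and had their largest difference in means at both times. It averaged 4.65 CPM in CardioGRKO ZT12 against 1.94 CPM in GRflox ZT12, and 3.90 CPM in CardioGRKO ZT0 against 1.34 CPM in GRflox ZT0. The sum without it was not taken. Not all 13 went that way: Tnni2 averaged 1.56 CPM in CardioGRKO ZT12 against 1.998 CPM in GRflox ZT12. The part of these shifts in the Casq1 result was not tested. The defining genes Myf6 and Pax7 had 0 counts in all 20 libraries, and Myh4, the fast myosin, was at most at 0.14 CPM. Of the 6 markers tested, 2 were higher (Atp2a1 and Mylpf) and 1 lower (Cacna1s) in CardioGRKO at ZT12, and 3 were higher (Atp2a1, Tnnt3 and Ryr1) at ZT0. Here and for the atrial markers, the all-gene shares were 10.4% (higher) and 10.7% (lower) at ZT12, with 7.36% and 7.35% at ZT0. Atrial markers were at 12.33 to 98.85 CPM in sum in CardioGRKO ZT12, 4.637 to 177.2 in GRflox ZT12, 18.25 to 52.61 in CardioGRKO ZT0 and 12.28 to 117.4 in GRflox ZT0, with 0 of 4 tested genes called between the genotypes at either time by edgeR.

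Of 8 endothelial markers, 3 were lower in CardioGRKO at ZT12 and 4 at ZT0, and none was higher. For this and the next lists, the all-gene shares were 10.4% (higher) and 10.7% (lower) at ZT12, with 7.36% and 7.35% at ZT0. The sum of the endothelial markers was 992.5 to 1144 CPM in CardioGRKO ZT12 against 1133 to 1236 CPM in GRflox ZT12. At ZT0 it was 1206 to 1327 CPM in CardioGRKO against 1374 to 1520 CPM in GRflox. It was also lower at ZT12 than at ZT0 in both genotypes, the direction that Asph took with time. Kdr had the largest fall in mean of the 8 markers in both genotypes. It averaged 195 CPM at ZT12 against 311 CPM at ZT0 in CardioGRKO, and 199 CPM against 342 CPM in GRflox. Not all 8 went that way: Vwf and Esam had the higher mean at ZT12 in both genotypes. The part of the shift in this sum in the Asph result was not tested. Fibroblast markers had 1 of 7 higher at ZT12 and 0 called at ZT0, pericyte and smooth muscle markers 1 higher and 1 lower at ZT12 and 1 higher and 3 lower at ZT0 (of 7), and macrophage markers 0 called of 6 at either time. Without the shallowest library the pericyte and smooth muscle count at ZT0 was 1 higher and 1 lower, beside 11.6% of all genes called. The sums of fibroblast and of macrophage markers overlapped between the genotypes at both times. The pericyte and smooth muscle marker that was higher was Acta2, smooth muscle actin, at 368 CPM in CardioGRKO ZT12 against 193 CPM in GRflox ZT12, and at 471 CPM in CardioGRKO ZT0 against 214 CPM in GRflox ZT0. The other 6 summed to 437.7 to 576.8 CPM in CardioGRKO ZT12 against 538.5 to 661.9 CPM in GRflox ZT12, and to 421 to 538.8 CPM in CardioGRKO ZT0 against 534.8 to 639.7 CPM in GRflox ZT0, with overlapping ranges at both times.

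The genes whose levels followed Casq1 most closely over the 20 libraries were Il13ra1 (Pearson r = 0.981), P4hb (0.977), Pdzd3 (0.971), Mybpc2 (0.97) and Klhdc7a (0.969), out of 11357 compared. All 5 were called higher in CardioGRKO at both times, which follows from choosing them by levels that hold the genotype difference of Casq1. Once the group means were removed, the closest were Cit (0.694), Pdxdc1 (0.687), Bin1 (0.686), Mybpc2 (0.667) and Tle4 (0.664), so Mybpc2, the fast skeletal myosin-binding protein C, was in both sets. Mybpc2 was higher in CardioGRKO by 1.23 ± 0.12 at ZT12 and 1.13 ± 0.12 at ZT0.

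Casq2 was followed most closely in level by Tspan12 (0.941), Bag2 (0.941), Nppb (0.933), Rgs12 (0.929) and Usp16 (0.929), and within groups by Sarnp (0.913), Sec13 (0.902), Uba3 (0.884), Gtf3c6 (0.869) and Cct5 (0.857). For Ryr2 the closest levels were those of Kcnj3 (0.962), Slc25a4 (0.951), Psme4 (0.95), Prodh (0.946) and Got1 (0.946). Within groups Ryr2 went most closely with Ubn2 (0.832), Ttn (0.829), Rasgrp2 (0.815), Malat1 (0.791) and Kdm5a (0.783). Among the 8 genes themselves the within-group correlations were mostly weak: the highest of 28 pairs was that of Trdn and Hrc (0.515), the lowest that of Ryr2 and Fkbp1b (-0.605), and the median was 0.05. These values describe 20 libraries that share their tissue, scaling and depth differences.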

How the data were processed

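Gene-level whole-number counts of 20 left ventricular RNA-seq libraries were deposited by the authors without normalization. Per the submitters' processing notes the tools were DESeq2 1.38.3, STAR 2.5.1 and featureCounts (Subread 1.5.1), and the build was mm10; paired-end reads were of 75 bases per the labels. Not given in the sources used here: strand setting, multi-mapping and annotation release. Lines were summed by Entrez identifier, 24918 lines to 24059 genes. Groups and replicate numbers came from the labels.

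Counts were tested with edgeR 4.0.16 (R 4.3.3): TMM scaling (factors 0.961 to 1.04), filterByExpr (minimum count 10, minimum total 15), 4 group means over all 20 libraries, quasi-likelihood F-tests, and Benjamini-Hochberg adjustment over the 14007 genes tested in each contrast. SE is the size of the log2 fold change over the square root of F. CPM are TMM-scaled. CPM per kilobase uses the exons of RefSeq-matched GENCODE M21 transcripts. The Casq1 to Casq2 ratio was tested by exact permutation of libraries (scipy 1.17.1). Low counts limit precision for Fkbp1b, which had 6 to 28 per library.

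All 8 genes are named throughout, and of the other lists up to 6 genes with the smallest p. The 5 most similar genes are those with the highest Pearson correlation of log2 CPM, or of its deviations from group means, unnamed gene models left out. The genes, lists and tests were chosen with earlier results of these data known. Alternatives were RLE scaling, library totals, no filter, DESeq2 1.42.0, only the groups compared, a replicate block, thinned libraries and leaving out each library. The counts of lists without the shallowest library, the other exon length and the marker sums without Acta2 or Cacna1s were added after seeing the data. No 2 libraries of a group agreed within sampling noise.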

Additional observations from a re-analysis of the deposited data

Results flagged for a closer look

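Of 36 sets of 5 libraries (the 8 genes and the log2 ratio of Casq1 to Casq2 in each group), 3 held a library that stood apart by Dixon's test. Chance gives about 1 in 20. Casq1 in GRflox ZT12 replicate 1 was at 30.4 CPM, the other 4 libraries at 18.4 to 21.0 CPM (gap over range 0.789). Without it the ZT12 log2 fold change of Casq1 was 2.56. Ryr2 in GRflox ZT0 replicate 3 was at 3068 CPM, the other 4 at 2450 to 2581 CPM (0.789). Hrc in GRflox ZT0 replicate 4 was the lowest of its group at 1836 CPM, the other 4 at 1929 to 1958 CPM (0.767). All 3 libraries belong to GRflox groups.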

How the results depend on the processing

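No called value changed sign under any alternative run. Of the values for single genes, 725 kept their side of the threshold, 13 were no longer called and 8 became called. Casq1, Casq2, Ryr2 and Trdn kept their genotype calls at both times under every alternative run. The count of the 8 genes called between the genotypes stayed between 5 and 6 at ZT12 and between 4 and 6 at ZT0. For time in CardioGRKO it was 1 to 2 when single libraries were left out, and 2 by DESeq2.

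Thinned to the shallowest library (12441 genes tested), all-gene counts were 1932 (ZT12) and 1270 (ZT0) between the genotypes, and 743 (CardioGRKO) and 1521 (GRflox) between the times, against 2952, 2060, 1284 and 2423 at full depth; fewer reads and genes enter by construction. The Jph2 call at ZT0 was then lost (-0.14, adjusted p = 0.0937). The interaction count over all genes was 26, was 69 by DESeq2, and ran from 16 to 33 with single libraries left out. By library totals alone, 78.4% of ZT12 genotype calls and 72.0% of ZT0 calls were higher, against 49.2% and 50% with TMM, and 36.0% of the GRflox time calls against 47.0%. Without GRflox ZT12 replicate 1, Casq2 was called for time in GRflox (-0.18, adjusted p = 0.0336), and without replicate 5 Fkbp1b was (0.82, adjusted p = 0.0336).

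Replicate numbers gave no clear pairing of the samples over all groups. Of 30 same-numbered pairs 8 correlated above 0.1 in their deviations (range -0.272 to 0.234) and 7 were best matched to their own number. Between GRflox ZT12 and CardioGRKO ZT12 all were positive (0.089, 0.234, 0.195, 0.128 and 0.01, in order of replicate), so a pairing there is not excluded. With the replicate number as a block, Jph2 was also called for time in both genotypes (adjusted p = 0.00781 in CardioGRKO, where the count of the 8 genes became 2, and 0.0258 in GRflox). The paired Casq1 to Casq2 differences were 2.15 at ZT12 and 2.12 at ZT0, each with an adjusted p of 0.125, since 5 pairs allow no exact p below 0.0625. With the other exon length the values were 2.15 at ZT12 and 2.12 at ZT0.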
